A study of Mus with 438 samples.

Results

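The 6 genes described here encode the subunits of transducin, the G protein of the light response. Gnat2, Gnb3 and Gngt2 encode the alpha, beta and gamma subunits of cones, and Gnat1, Gnb1 and Gngt1 those of rods. They were taken by name, without regard to their values, and all 6 of 6 were present among the 10390 genes measured. Single photoreceptors of C57BL/6 mice were picked by their fluorescence, and each gave 1 RNA library. Control cones carried Trb2Cre-het with the Ai6 reporter and came from pieces of superior or inferior retina. At postnatal day 2 (P2) there were 30 inferior and 26 superior cells, at P8 and at P21 24 of each zone, at P60 21 inferior and 26 superior cells, and in a collection labelled 2 months (2m) 50 inferior and 53 superior cells. Knockout cones were Trb2Cre-KO with Ai6, from 2 months alone (48 inferior and 50 superior cells). The 29 rods, also of 2 months, came from another line, tgNrl:gfp, so cell type and line cannot be told apart. The driver sits at Thrb, the thyroid hormone receptor gene, so the control cones too carry an altered Thrb allele. Region lists came from E18 retina of ThrbHAB:BirA mice with BirA controls (2 and 2 samples, pull-down of the tagged receptor) and from purified P30 cones of Trb2Cre-het and Trb2Cre-KO mice with Sun1-gfp (2 and 2 samples, open chromatin).

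In a photoreceptor, light-activated opsin makes the alpha subunit exchange GDP for GTP and leave the beta-gamma pair, and the free alpha subunit then activates the phosphodiesterase that lowers cyclic GMP. Rods and cones use separate genes for each subunit, and the phosphodiesterase, channel and opsin genes are likewise divided between the cell types. Beta and gamma form a stable pair, which phosducin can bind, while Unc119 carries the lipid-modified alpha subunit.

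Values are CPM, the reads of a gene scaled to the total of its library. The labels name no animal, so the cells of a group were taken as 1 sample, the group value was the mean CPM over cells, and nothing was tested over cells. Depth was 8.98e+05 to 3.26e+07 reads per cell. It differed by collection, with group medians of 1.74e+06 to 3.25e+06 reads from P2 to P60 and 1.09e+07 to 1.83e+07 in the 2m control, knockout and rod groups. The 9 cone markers summed to 7644 to 103230 CPM in the cone groups and 20.95 CPM in rods. Thrb was at 169.7 and 213 CPM in inferior and superior 2m controls and 33.9 and 43.2 CPM in the knockout. Since a value sums the reads of the entire Thrb gene, it does not check the deletion itself. Markers of other cells were present: of 9 Müller glia markers 7 were measured, summing to 376 to 1280 CPM in cones and 2889 CPM in rods, and of 9 bipolar markers 3 were, at 102 to 599.7 CPM in cones and 45.6 CPM in rods. Of the 9 rod markers, Nrl was not in the table. Of the other lists, 4 of 10 amacrine, horizontal and ganglion markers were measured (22.02 to 184 CPM in cones, 1.67 in rods), 1 of 8 of microglia and endothelium (0.0416 to 17.7 CPM in cones, 0 in rods) and 0 of 5 of the pigment epithelium. Their part in the results was not tested.

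A pair of cone libraries, singled out after their values were seen, went against the label. Cell 4 of P2 superior cones had 1.56 CPM of Gnat2, 0.780 of Gnb3 and 0 of Gngt2, with 26.9 CPM of S opsin (Opn1sw). Cell 35 of knockout superior cones had 9.69, 7.23 and 24.3 CPM, with 225 CPM of Opn1sw. Both held Gnb1, at 231 and 227 CPM. Leaving them out moved the Gnat2 mean from 1455 to 1513 CPM at P2 and from 9747 to 9946 CPM in the knockout.

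The cone alpha gene Gnat2 (gene ID 14686) lies on chromosome 3, 108086788 to 108101432 (GRCm38). Its level followed age more than zone. In inferior cones the group mean was 1192 CPM at P2, 3260 at P8, 7628 at P21, 9439 at P60 and 8846 at 2m. In superior cones the means were 1455, 3485, 7295, 10288 and 8625 CPM in the same order. From P2 to P21 the cells themselves moved up as a group: inferior cells ran from 53.2 through a median of 1061 to 2630 CPM at P2, and from 4434 through 7222 to 13986 CPM at P21, so these groups did not overlap. Among mature groups the order of the means was P21 superior, P21 inferior, knockout inferior, 2m superior, 2m inferior, P60 inferior, knockout superior and P60 superior. The interquartile ranges of the cells overlapped at each step of that order.

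The cone beta gene Gnb3 (gene ID 14695, chromosome 6, 124834240 to 124840275) started higher relative to its own mature level. Its means in inferior cones were 3543 CPM at P2, 4796 at P8, 7076 at P21, 7652 at P60 and 6848 at 2m. In superior cones they were 3048, 4000.4, 5996, 6220 and 5850 CPM, below the inferior mean in each collection. Apart from the pair of cells named above, Gnat2 and Gnb3 reached 10 CPM in each of the 400 cones.

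The cone gamma gene Gngt2 (gene ID 14710, chromosome 11, 95841772 to 95845734) kept no such order with age. Its means were 446.0 CPM inferior and 477 CPM superior at P2, 696 and 997 at P8, 636 and 600.2 at P21, 717 and 673 at P60, and 573 and 480.3 in 2m controls. The highest control mean was that of P8 superior cones, whose cells ran from 290.4 through 956 to 1731 CPM. In the same zone P21 cells ran from 366 through 622 to 849 CPM, inside the P8 range. The Gngt2 interval overlaps that of Abi3, and the library kit is not stated to keep strand, so reads of the shared stretch cannot be assigned. The same limit holds for Gnat2 (overlapping Gm12500), Gnb1 (Gm13171) and Gngt1 (LOC105247366).

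**Figure D1:**
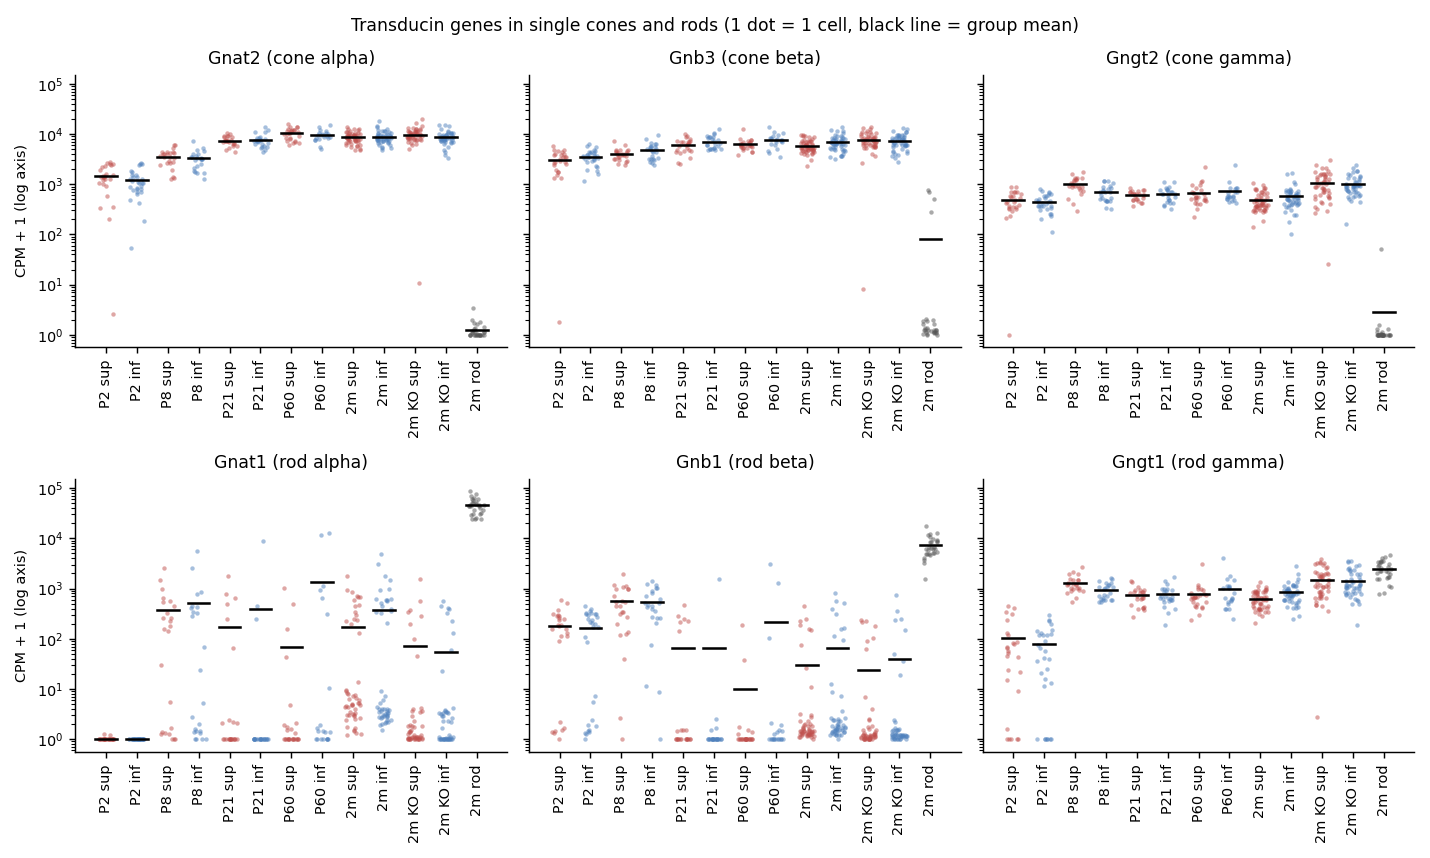
CPM plus 1 (log axis) of each transducin gene in each cell (dots, superior red, inferior blue, rods grey) and the group mean plus 1 (black line), by age, zone and genotype. Gnat2 and Gnb3 form 1 high band in cones apart from 2 low cells, Gnat1 and Gnb1 split mature cones into many cells near 0 and a few high ones, and Gngt1 is high in cones from P8 on as well as in rods.

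In rods the cone subunits were close to absent. Gnat2 had a mean of 0.265 CPM (lowest 0, median 0.0605, highest 2.47), and 0 of 29 rods reached 10 CPM, which allows a share of up to 10.3%. Gngt2 had a mean of 1.81 CPM and a median of 0, with 1 rod of 29 at 50.99 CPM. Gnb3 was uneven: its median was 0.252 CPM, but 4 of 29 rods held 273 to 774 CPM, which gave a mean of 78.4 CPM. Of these 4 rods, 1 also held Opn1sw, at 492 CPM. Gnat2 was at 0 in all 4. A part of other cells' RNA in these values was not tested.

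Relative to 2m cones, the log2 ratio of (mean CPM + 1) in rods was -12.73 against superior and -12.77 against inferior cones for Gnat2, -7.42 and -7.67 for Gngt2, and -6.20 and -6.43 for Gnb3. For the rod genes it was 8.07 and 6.92 for Gnat1, 7.90 and 6.80 for Gnb1, and 1.96 and 1.52 for Gngt1. A description by size was used, since rods were 1 collection: at least 4-fold against both zones with a mean of at least 10 CPM in the higher group. By it 2 of 6 transducin genes were higher in rods (2.09% of all genes) and 3 of 6 lower (21.4% of all genes), and Gngt1 missed it against both zones.

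The rod alpha gene Gnat1 (gene ID 14685, chromosome 9, 107674437 to 107679634) was abundant in rods, at 23773 to 86458 CPM with a median of 44864. At P2 it was absent from cones at this depth: 0 reads in the 30 inferior cells, below a floor of 0.0339 CPM for 3 reads over the group, and 2 reads in the 26 superior cells. At P8 it reached 10 CPM in 12 of 24 inferior cones (50%, exact 95% interval 29.1 to 70.9) and 15 of 24 superior cones (62.5%, 40.6 to 81.2). The P8 cells ran from 0 through medians of 13.8 and 167 CPM to 5538 and 2592 CPM. The P8 mean of 503 CPM in inferior cones was at least 14828-fold the P2 floor. In superior cones the P8 mean of 367 CPM stood 16070-fold over the 2 reads of P2 (counting interval 4449 to 132699).

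In mature control cones Gnat1 sat in a minority of cells. The share at 10 CPM or more was 12.5% and 25% in inferior and superior cones at P21 (3 and 6 of 24), 28.6% and 15.4% at P60 (6 of 21 and 4 of 26), and 36% and 32.1% in 2m controls (18 of 50 and 17 of 53). Group medians were between 0 and 4.29 CPM. The means were 394 and 167 CPM at P21, 1327 and 66.4 at P60, and 375 and 169 in 2m controls, and a few cells set them. At P21, 1 inferior cell with 8756 CPM gave 92.6% of the group's sum. At P60, inferior cells 17 and 18 had 13004 and 11800 CPM, below the lowest rod at 23773 CPM. Those cells also carried the cone subunit Gnat2, at 7427 and 5060 CPM.

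The rod beta gene Gnb1 (gene ID 14688, chromosome 4, 155491300 to 155559269) had a time course of its own. It was present at P2, before Gnat1, in 19 of 30 inferior cones (63.3%, exact 95% interval 43.9 to 80.1) and 19 of 26 superior cones (73.1%, 52.2 to 88.4) at 10 CPM or more. At P8 it reached 10 CPM in 22 of 24 cones of each zone (91.7%, 73.0 to 98.97). At P21 it did so in 1 of 24 inferior (4.17%, 0.105 to 21.1) and 6 of 24 superior cones (25%, 9.77 to 46.7). Inferior cells ran from 0 through 456 to 1435 CPM at P8 and had a median of 0 with 1 cell at 1578 CPM at P21. Means were 166 and 180.4 CPM in inferior and superior cones at P2, 546 and 555 at P8, 65.9 and 65.4 at P21, 212 and 8.80 at P60, and 63.5 and 29.1 in 2m controls, against 7191 CPM in rods (1559 to 17435). Gnb1 is expressed in many cell types, unlike Gnat1, and its interval overlaps that of Gm13171.

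The rod gamma gene Gngt1 (gene ID 14699, chromosome 6, 3989082 to 3997436) was the exception among rod subunits, because mature cones held it in each cell. At P2 it reached 10 CPM in 23 of 30 inferior and 19 of 26 superior cones, with means of 77.2 and 100.4 CPM. From P8 on it reached 10 CPM in each control cone. Means in inferior and superior cones were 937 and 1282 CPM at P8, 761 and 731 at P21, 974 and 760 at P60, and 853 and 629 in 2m controls. The lowest control cone from P8 on had 191 CPM, at P21. Rods ran from 762 through 2272 to 4558 CPM, so the cells of rods and mature cones overlapped.

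Set against its own mean in rods, Gngt1 in P21 to 2m control cones stood at 25.8% to 39.8%. Gnat1 stood at 0.145% to 2.90% and Gnb1 at 0.122% to 2.94%. Among other rod phototransduction genes, the phosphodiesterase beta gene Pde6b (up to 1.86%) was also low, as were the channel genes Cnga1 (up to 3.20%) and Cngb1 (up to 2.198%), the phosphodiesterase alpha gene Pde6a (up to 8.22%) and the exchanger gene Slc24a1 (up to 6.595%). The arrestin gene Sag (44.3% to 96.7%) and the inhibitory phosphodiesterase gene Pde6g (26.5% to 42.7%) were, like Gngt1, at a large part of their rod level. So were phosducin (Pdc, 34.7% to 58.8%), which binds beta-gamma, and Unc119 (42.03% to 63.6%).

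**Figure D2:**
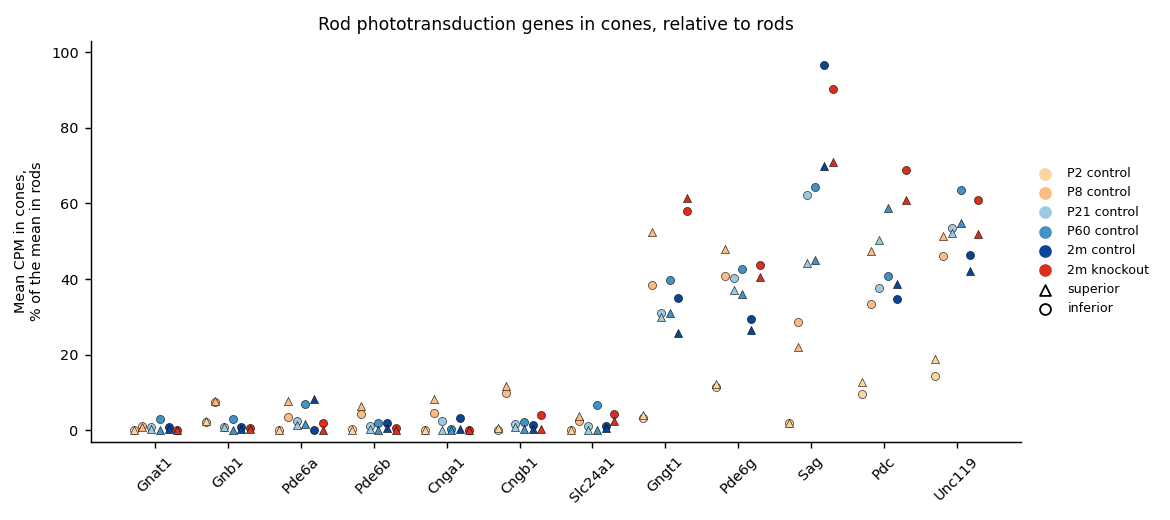
Mean CPM of rod phototransduction genes in each of the 12 cone groups, as a percent of the same gene's mean in rods (triangles superior, circles inferior, colour by age and genotype). In P21 to 2m controls Gnat1, Gnb1 and the genes up to Slc24a1 lie under 10%, and Gngt1 lies between 25.8% and 39.8%, with Pde6g, Sag, Pdc and Unc119.

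The first comparison between groups asked how the transducin genes differ from age to age in control cones. Each age was 1 collection, so a step was described as met where superior and inferior cones each showed a ratio of (mean CPM + 1) of 2-fold or more, in 1 direction, with a mean of at least 10 CPM in the higher group. From P2 to P8, 4 of 6 genes met it upward, where 4.42% of all genes did. These were Gnat2 (log2 ratio 1.26 superior, 1.45 inferior), Gnat1 (8.50 and 8.98, values that depend on the added 1 because P2 was at or near 0), Gnb1 (1.62 and 1.71) and Gngt1 (3.66 and 3.58). Gnb3 (0.39 and 0.44) and Gngt2 (1.06 and 0.64) did not. From P8 to P21, Gnat2 met it upward again (1.07 and 1.23, where 3.83% of genes did) and Gnb1 downward (-3.07 and -3.03, 6.16%). From P21 to P60 and from P60 to 2m, 0 of 6 met it in either direction, where 6.53% and 9.94% of all genes did.

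The 8 measured rod markers, which include Gnat1 and Gngt1, moved with these steps. They summed to 1370.0 and 1531 CPM in inferior and superior cones at P2, 12710.2 and 12745 CPM at P8, and 16835 and 12594 CPM at P21.

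Ages were also tested as classes, P2 and P8 against P21, P60 and 2m, with limma on the 5 collection means of log2(mean CPM + 1). Gnat2 was at 10.36 and 11.72 in P2 and P8 and at 12.87, 13.27 and 13.09 in P21, P60 and 2m, and the classes did not overlap. Its difference, mature minus young, was 2.03 (SE 0.50, limma adjusted p = 0.139). Gnb1 was at 7.44 and 9.11 against 6.06, 5.51 and 5.46, also apart, with a difference of -2.60 (SE 0.49, limma adjusted p = 0.0706). Gnb3 was apart too, with a difference of 0.79 (SE 0.43, limma adjusted p = 0.411). Gnat1 (3.69, SE 1.80, limma adjusted p = 0.378), Gngt1 (1.32, SE 0.79, limma adjusted p = 0.460) and Gngt2 (-0.03, SE 0.36, limma adjusted p = 0.979) had overlapping classes. None of the 6 passed, where limma called 19 of 10136 genes (0.187%), and Gnat2 and Gnb1 had an unadjusted p under 0.05, as 14.5% of all genes did.

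The age test leaned on single collections. Without P8 the young class was P2 alone, and the differences were 2.71 for Gnat2, 8.06 for Gnat1 and 3.13 for Gngt1. No test is given for that fit, since 1 young collection has no spread. Without P2 the differences of Gnat1 and Gngt1 changed sign, to -0.68 and -0.49. With log values averaged over cells, Gnat2 (2.26, limma adjusted p = 0.0420) and Gnb1 (-5.42, limma adjusted p = 0.00583) passed.

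The second comparison asked whether superior and inferior control cones differ in transducin RNA, over the 5 collections with the collection as a block. Gnb3 was lower in superior cones in 5 of 5 collections, by a similar amount in each. On the scale of log2(mean CPM + 1), superior minus inferior, it differed by -0.22 at P2, -0.26 at P8, -0.24 at P21, -0.30 at P60 and -0.23 at 2m. The mean was -0.25 (SE 0.06, limma p = 0.00318, adjusted p = 0.628), a ratio of 0.842, and an exact two-sided sign-flip test over the collections gave p = 0.0625, the smallest that 5 pairs can give. In knockout cones, as 1 pair of groups without a test, the difference was 0.06.

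Neither the other cone subunits nor the rod gamma gene Gngt1 kept 1 direction over the 5 collections. Gnat2 differed by 0.08 (SE 0.08, limma adjusted p = 0.847, higher in 3 of 5 collections). Gngt2 differed by 0.04 (SE 0.13, limma adjusted p = 0.969), from 0.52 at P8 to -0.25 in 2m controls. Gngt1 differed by -0.01 (SE 0.16, limma adjusted p = 0.996), with 0.37 at P2 and 0.45 at P8 and -0.06, -0.36 and -0.44 in the P21, P60 and 2m collections. The change of a zone difference between the age classes was tested by limma and did not pass for any of the 6 genes (adjusted p = 0.900 to 0.998).

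Gnat1 and Gnb1 had lower means in superior cones, -1.42 (SE 0.54, limma adjusted p = 0.702) and -1.08 (SE 0.61, limma adjusted p = 0.767). These values were set by P60, at -4.30 and -4.44, where the inferior group held cells 17 and 18, the pair rich in Gnat1. Without the P60 collection the mean differences were -0.70 and -0.24. Over all genes limma called 0 of 10136 (0%), with 710 at an unadjusted p under 0.05 (7%), among them Gnb3 and Gnat1. By edgeR 0 genes passed (416 at an unadjusted p under 0.05), and by DESeq2 236 did, with 0 of the 6 among them.

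**Figure D3:**
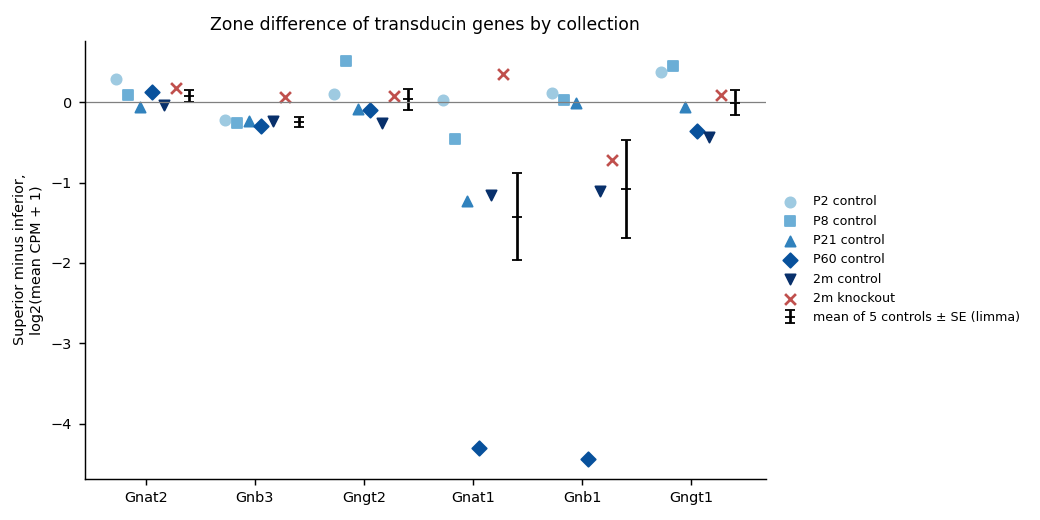
Zone difference (superior minus inferior, log2(mean CPM + 1)) of each gene in each control collection (blue symbols), in the knockout (red cross), and the mean of the 5 collections with its SE from limma (black). Gnb3 lies between -0.22 and -0.30 in the 5 collections, and the P60 values of Gnat1 and Gnb1 stand at -4.30 and -4.44.

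The third comparison set knockout cones against both adult control collections, 2m and P60. The knockout was 1 collection, so no test was possible. Asking for 2-fold or more in each zone and against each control collection, 0 of 6 genes differed, where 1.67% of all genes did. The group means of the gamma genes were above control in each of the 4 ratios. Gngt2 cells in superior cones ran from 24.3 through 985 to 3046 CPM in the knockout, and from 139 through 416 to 1069 CPM in 2m controls. In inferior cones they ran from 161 through 926 to 2466 CPM, and from 99.9 through 523 to 1702 CPM. The cells overlapped between genotypes in both zones. The log2 ratio of Gngt2 was 1.15 superior and 0.81 inferior against 2m controls, and 0.66 and 0.48 against P60.

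Gngt1 ran from 1.74 through 1189.7 to 3888 CPM in superior knockout cones, and from 203 through 609 to 1334 CPM in superior 2m controls. Its log2 ratio was 1.26 superior and 0.73 inferior against 2m controls, and 0.98 and 0.54 against P60. The comparisons with 2m and with P60 share the knockout groups. For scale, 2m over P60 controls gave -0.49 and -0.32 for Gngt2 and -0.27 and -0.19 for Gngt1. Within the knockout the gamma genes varied together over cells, with a Pearson r of 0.87 in superior and 0.84 in inferior cones, against 0.46 and 0.43 in 2m controls and 0.20 to 0.65 over all control groups, given as a description. The superior knockout value includes the low cell 35. High Gngt1 lay in runs of cell numbers, seen after the fact. Inferior knockout cells 4 to 15 had 186 to 1114 CPM, about the control mean of 853 CPM, and cells 39 to 47 had 1907 to 3604 CPM. Superior cells 3 to 21 had 350.1 to 1718 CPM, and cells 27 to 45, apart from cell 35, had 1576 to 3888 CPM. These runs were picked from the values, so they cannot show how much of the knockout collection the higher means describe. Inferior cells 2 and 3, just before the first run, had 2308 and 2565 CPM. Over all cells the lower quartile of Gngt1 was 815 CPM in inferior and 772 CPM in superior knockout cones. The medians of inferior and superior 2m controls were 790 and 609 CPM. The cause was not tested.

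The alpha and beta genes of cones stayed near control level. Gnat2 had means of 9747 CPM superior and 8602 CPM inferior in the knockout, with log2 ratios of 0.18 and -0.04 against 2m and -0.08 and -0.13 against P60. Gnb3 had 7564 and 7242 CPM, with 0.37 and 0.08 against 2m and 0.28 and -0.08 against P60. Gnat1 was lower than in 2m controls by the 2-fold rule (-1.26 and -2.76, where 2.76% of all genes were lower), but against P60 the superior value was 0.07. It reached 10 CPM in 8 of 50 superior (16%, exact 95% interval 7.17 to 29.1) and 9 of 48 inferior knockout cones (18.8%, 8.95 to 32.6). Gnb1 had 22.6 and 37.7 CPM, with -0.35 and -0.73 against 2m and 1.27 and -2.46 against P60, so its direction in superior cones turned with the control used.

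**Figure D4:**
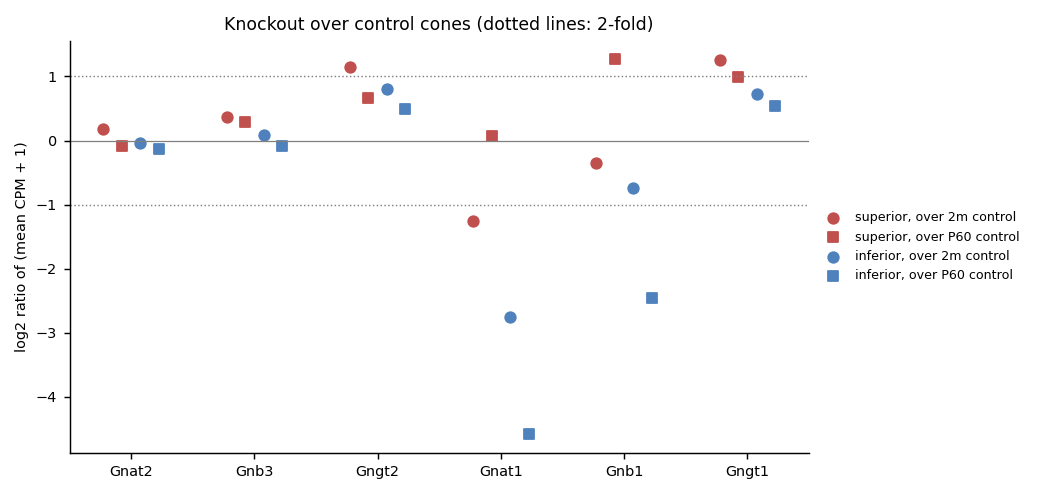
Log2 ratio of (mean CPM + 1) in knockout over control cones for each gene, superior red and inferior blue, over 2m controls (circles) and P60 controls (squares), with 2-fold marked by dotted lines. Gngt2 and Gngt1 are above 0 in all 4 ratios, Gnat2 and Gnb3 lie within 0.37 of 0, and Gnat1 and Gnb1 scatter with the control used.

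Genes that handle transducin were followed as a list of 16, of which 15 were measured. In the zone and age tests 0 of 15 passed (0% and 0.187% of all genes), with list medians of 0.09 and 0.32 against 0.10 and -0.33 over all genes. Pdc was higher in superior cones by 0.40 (SE 0.08, limma adjusted p = 0.538). From P2 to P8, 5 of 15 met the 2-fold rule upward (4.42% of all genes) and 2 downward (8.99%). The median log2 ratio was 0.51 against -0.19 over all genes. Upward were Pdc, from 636 and 841 CPM to 2197 and 3122 CPM in inferior and superior cones, Unc119, from 1003 and 1316 to 3234 and 3610.2 CPM, the chaperone gene Ric8b, the RGS9 anchor gene Rgs9bp and the prenyl-binding gene Pde6d. Downward were the chaperone gene Ric8a and Gpsm2, whose protein binds inhibitory alpha subunits. In rods, 2 of 15, Ric8b (246 CPM) and Gpsm2 (505 CPM), were over 4-fold above both 2m cone groups (2.09% of all genes), and 1 of 15, the Arl3 GTPase activator gene Rp2 (0.00644 CPM), was below them (21.4%). In the knockout 0 of 15 met the rule (1.67% of all genes).

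Of 26 other G protein subunit genes, 16 were measured. In the zone and age tests 0 of the 14 tested passed, with medians of 0.24 and -1.23 against 0.10 and -0.33 over all genes. From P2 to P8, 3 of 16 (Gnai2, Gnai3 and Gna12) met the rule downward, where 8.99% of all genes did. Gng3 met it upward (4.42% of all genes), and the median was -0.68 against -0.19 over all genes. Gnai2, an inhibitory alpha subunit, had 283 and 382 CPM at P2 and 16.7 and 78.3 CPM at P8. In rods 3 of 16 (Gnai3, Gna11 and Gnb2) were below both 2m cone groups by the 4-fold rule, a share no larger than that of all genes (21.4%). In the knockout 0 of 16 met the 2-fold rule (1.67% of all genes).

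Partners of transducin in the light response were compared by the same rules. Of 15 cone phototransduction partners measured, 11 met the 2-fold rule upward from P2 to P8, where 4.42% of all genes did. Their median log2 ratio was 2.03, against -0.19 over all genes. From P8 to P21, 4 of 15 met it upward (3.83% of all genes), namely Opn1mw, Arr3, Grk1 and Gucy2e. Of 8 rod partners, 8 met it upward from P2 to P8 (median 5.58, 4.42% of all genes). From P8 to P21, 4 of 8 met it downward (6.16% of all genes), as Gnb1 did, among them Pde6b, Cngb1 and Slc24a1. Sag met it upward (3.83%). In the knockout M opsin (Opn1mw) and cone arrestin (Arr3) met it downward among cone partners (0.914% of all genes), while the cone transducin genes did not meet it. In the zone test 0 of 15 cone partners passed. An unadjusted p under 0.05 was reached by 5 of 15, where 7% of all genes reached it. These 5 were lower in superior cones: Opn1sw (-2.15), Pde6c (-0.23), Grk1 (-0.43), Guca1a (-0.44) and Guca1b (-1.25), with limma adjusted p = 0.476 to 0.708. Other partners were higher there without reaching it, such as Opn1mw (0.74) and Arr3 (0.27). The list median was -0.11 against 0.10 over all genes. Of 8 rod partners 0 passed either test.

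Among 9051 genes averaging 10 CPM or more, those most like Gnat2 over the 13 groups, by the Pearson r of log2(mean CPM + 1), were Gnb3 (0.994), Pcdh15 (0.993) and the cone phosphodiesterase gene Pde6c (0.991). Gngt2 ranked 45 (0.962). Over the 12 cone groups alone they were Sntg2, Vtn and Usp2 (0.98 each), and Gnb3 ranked 39 (0.939) and Gngt2 1180 (0.435). Most like Gnat1 over 13 groups were Alpl (0.954), the disc gene Rom1 (0.932) and 1700071M16Rik (0.926), and over the cones Alpl (0.944), the retinol dehydrogenase gene Rdh12 (0.940) and Gpr152 (0.934). The groups share ages and libraries, so these values are descriptions.

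The region lists were read against the gene intervals. Receptor-bound regions of E18 retina (4590 regions of 300 bp) overlapped each of the 3 cone transducin genes and 0 of the 3 rod genes, where 14.7% of 10149 genes were overlapped. In Gnat2 the region was chr3:108092673-108092972, and another, chr3:108086346-108086645, lay 143 bp outside the gene. In Gnb3 it was chr6:124840230-124840529, across the upper end of the interval, and in Gngt2 chr11:95843876-95844175. Within 50 kb, 5 of 6 genes had a bound region, where 39% of all genes did, and Gngt1 had none.

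Regions of the suppressed ATAC list (4072) overlapped Gnat1 and Gnb1 and none of the other 4 genes, where 6.24% of all genes were overlapped. In Gnat1 the region was chr9:107679338-107680255, across the upper end of the gene. In Gnb1 there were 4, namely chr4:155522017-155522872, chr4:155523314-155523542, chr4:155523852-155524088 and chr4:155537858-155538627. The induced ATAC list (5049) overlapped 0 of 6 genes, where 11.9% of all genes were overlapped, and had regions within 50 kb of Gnb3, Gnat1 and Gnb1 (35.5% of all genes). Bound and induced regions overlapped each other near these 3 genes: once near Gnb1 (chr4:155473378-155473677 and chr4:155473334-155473666, about 17.6 kb from the gene), once near Gnb3 (bound region chr6:124883485-124883784) and 2 times near Gnat1 (bound regions chr9:107723829-107724128 and chr9:107729256-107729555). The share of all genes with such an overlap nearby was not computed, so whether these overlaps are unusual cannot be told. The lists carry no values per sample, the direction words are those of the lists, and exons and strand were not analysed here.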

How the data were processed

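RNA of single cells was deposited by the authors as CPM, the reads of a gene scaled to the total of its library. Per the labels, each library came from 1 picked cell, with SMART-Seq v4 cDNA. Per the submitters' processing notes, bcl2fastq 2, STAR 2.7.3a and MACS2 2.2.7.1 were used on GRCm38/mm10. The counting tool is not given in the sources used here. Values above 0 were whole multiples of 1 read for 100% (tolerance 0.1 reads), and whole reads were recovered from the deposited CPM. The bound-region list holds a deposited p-value column, not used here.

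P60 superior cells 3 and 14 (Pearson r 0.996, other pairs up to 0.467) differed by little over sampling noise (chi-square per degree of freedom 1.9 over 3633 genes) and were counted as 1 cell, leaving 429 cells. Limma 3.58.1 (trend, empirical Bayes) was fitted in R 4.3.3 to log2(mean CPM + 1) over 10136 genes averaging 5 CPM or more, with Benjamini-Hochberg adjustment and a threshold of 0.05. A pseudocount understates folds of low genes. Replicates were collections, so p-values measure the spread between collections. The zone fit used 10 groups with the collection as a block, and the age fit used 5 collection means. Scripts were tested on simulated data. Alternatives were other pseudocounts, filters and averages, single collections left out, edgeR 4.0.16 and DESeq2 1.42.0 on summed recovered reads, and, added after seeing the data, cells left out. Shares have exact Clopper-Pearson 95% intervals, and the limit for 0 is 3 counts. Both cover counting error only. Intervals of genes came from RefSeq (GRCm38.p6), with 241 gene IDs not matched and 13 symbols repaired by ID. Coordinates count from 1.

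The 6 members and the gene lists were chosen with earlier results of these data known. Named were the 6 genes, list members that passed the rule of their comparison, and the 3 genes most like Gnat2 and most like Gnat1. Some results on single marker genes are not reported here.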

Additional observations from a re-analysis of the deposited data

Results flagged for a closer look

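The zone difference of Gnb3 had 1 direction in the controls and the other in the knockout. Superior minus inferior log2(mean CPM + 1) was negative in 5 of 5 control collections and 0.063 in knockout cones, with means of 7564 CPM superior and 7242 CPM inferior. The knockout is 1 pair of groups, and the difference between genotypes was not tested.

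The zone difference of Gnb1 had 1 collection far from the others. P60, at -4.44, lay apart from the other 4 collections by a gap of 0.733 of the whole range, above the limit of 0.71 for 5 values that chance passes in about 1 of 20 groups. Means at P60 were 212 CPM inferior and 8.80 CPM superior. Inferior cells 17 and 18 had 3048 and 1289.8 CPM of Gnb1, with 13004 and 11800 CPM of Gnat1.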

How the results depend on the processing

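Of 54 recomputed counts over the transducin genes, 51 stayed within 1.5 times the reported count. The 3 that moved belong to the age test, where limma called 0 of 6. With log values averaged over cells 2 passed (Gnat2, Gnb1), and by DESeq2 3 did (Gnat2, Gnb3, Gnb1). The remaining count was that without P8, which is not given because P2 alone was left in the young class. Leaving out single collections gave 0 to 0 transducin genes in the zone test.

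Over all genes the age test called 19 genes, but 2 with pseudocount 0.1, 48 with pseudocount 10 and 400 with averaged logs. It called 2 in superior and 0 in inferior cones alone (1137 at an unadjusted p under 0.05). By edgeR 3 passed and by DESeq2 342, and 0 to 11 passed without P21, P60 or 2m. The zone test called 0, but 16 with averaged logs and 236 by DESeq2.

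Directions turned in the following cases, none of them called, and the cause was not tested. In the zone test these were Gngt2 (-0.0078 with averaged logs, -0.075 by edgeR, -0.074 by DESeq2, and -0.083 to 0.11 without single collections, lowest without P8), Gnb1 (0.074 with averaged logs), Gngt1 (-0.12 to 0.10 without single collections, above 0 without P21, P60 or 2m) and Gnat2 (-0.0088 by edgeR and -0.0084 by DESeq2). In the age test these were Gngt2 (0.036 with averaged logs, 0.20 in inferior cones alone, 0.21 by edgeR and by DESeq2, and -0.45 to 0.40 without single collections), Gnat1 (-0.68 to 8.06) and Gngt1 (-0.49 to 3.13), the last pair below 0 without P2.

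Beyond the collection, which paired the superior and inferior groups in the zone test, no paired analysis was possible because the numbers in the labels name single cells and pair nothing across groups. Leaving out the 2 cells low in cone subunits moved no count of genes meeting a rule. Over its alternatives the adjusted p of Gnb3 in the zone test was 0.171 to 0.833. At the depths of the groups, 3 reads amount to 0.00392 to 0.0699 CPM over a group, which bounds what a group without reads can show.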
